A study of Caenorhabditis elegans with 59 samples.

Results

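The genes described here are the weakly targeted genes of the csr class, genes of Caenorhabditis elegans that carry modest amounts of antisense small RNA. They were chosen by their measured small RNA values, as all entries labelled csr in the deposited small RNA table of the generation 50 lines whose mean value over the 3 wild-type libraries was at least 10 and under 200. The rule found 2155 entries for 2154 genes, because exos-4.1 is listed 2 times, out of 3639 csr-class genes and 23411 entries in the table. Of the other csr-class genes, 1390 lay at or above 200 (called strongly targeted here) and 95 lay under 10. The wild-type mean at generation 50 had a median of 88.6 over the members, with the middle 50% between 48.2 and 138. Members just inside the lower bound were C56E6.2 at 10.03, ZC449.3 at 10.13 and ZK973.9 at 10.18, and csr-class genes just outside it were Y48G1BL.4 at 9.99, Y64H9A.1 at 9.88 and F33G12.6 at 9.76. Just under the upper bound lay pbs-1 at 199.9, T28A8.4 at 199.2 and lig-4 at 199.1, and just above it map-2 at 200.03, Y87G2A.1 at 200.2 and F21H12.1 at 200.4. These values chose the members, so small RNA contrasts with the generation 50 wild type are given below as descriptions only.

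CSR-1 is an Argonaute protein of the germ line that binds 22G-RNAs, short antisense RNAs with a 5′ guanosine made on mRNA templates by the RNA-dependent RNA polymerase EGO-1. Its targets are mostly genes expressed in the germ line, and CSR-1 is known for protecting or fine-tuning their expression, unlike the WAGO Argonautes, which silence. PRG-1 is the Piwi protein that binds piRNAs, which mark transcripts for silencing, and the helicases MUT-14 and SMUT-1 help make the WAGO-bound 22G-RNAs of the mutator pathway.

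The study asked how loss of PRG-1 and loss of the mutator pathway, alone and together, act on small RNAs and mRNAs early and after many generations. All animals were gravid adults raised at 20 °C on the E. coli strain OP50. Wild type was N2, the prg-1 mutant was SX922 carrying prg-1(n4357) on chromosome I, the mut-14 smut-1 mutant was GR1948 carrying mut-14(mg464) and smut-1(tm1301) on chromosome V with unc-119(ed3) on chromosome III, and the triple mutant was GR2070 carrying prg-1(n4357) with mut-14(mg464) and smut-1(tm1301). Every contrast of mut-14 smut-1 with another strain is therefore also a contrast of the unc-119 allele. A second prg-1 allele, tm872 in strain WM161, was sequenced with its own wild type. Animals of the first generation were collected at 72 h and those of the tm872 series at 68 h. Generation 50 held 3 lines per genotype, and no age in hours is given for it. Each group had 3 libraries, except the mut-14 smut-1 small RNA libraries of generation 1, of which there were 2. Separate cultures are not stated for the replicates of generation 1 and of the tm872 series, so p-values there measure the spread between libraries, which may be technical.

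Library depth ranged from 224056 to 2117438 small RNA reads in generation 1, from 1533620 to 2452755 in the tm872 series and from 4417604 to 13038036 at generation 50. The mRNA libraries held an estimated 12053219 to 23482062 reads in generation 1 and 14285577 to 63849056 at generation 50. The mutated genes fell in the mRNA as labelled in generation 1: prg-1 was at 10081 to 10690 in wild type and 3825 to 3988 in the prg-1 mutant, and mut-14 was at 1777 to 1871 in wild type and 36.0 to 46.4 in the mut-14 smut-1 mutant. Most members were expressed: 2146 of 2154 (99.6%) reached 10 normalised mRNA counts in at least 3 libraries of generation 1, against 64.4% of all features. In small RNA, 1959 of 2154 members passed the corresponding filter in generation 1 and 1948 of 2153 in the tm872 series, and the 195 and 205 that did not are in none of the counts below.

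The members kept their rank in the wild types that the rule did not use. Their wild-type small RNA values had a median of 28.7 in generation 1, where 340 members lay under 10, and 48.5 in the tm872 series, where 231 lay under 10 and 2 were at 0. Across 2154 members, the wild-type level at generation 50 went with that of generation 1 (Pearson r = 0.954) and with that of the tm872 series over 2153 members (r = 0.94), a description across genes, which share libraries and are not replicates. In generation 1 wild type the members together took 6.31%, 6.33% and 6.23% of the summed small RNA values.

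In generation 1, small RNAs of the members shifted upwards in the prg-1 mutant relative to small RNAs as a whole. The median log2 change of the 1959 tested members was 0.27, against -0.10 over all 7418 features, and 73.5% of the members lay above the median of all features. Of the members, 631 rose and 176 fell (limma, Benjamini-Hochberg adjusted p under 0.05), beside 27.9% higher and 38.3% lower over all features. The direction depends on the scale: with values scaled to library totals the median over all features moved to -0.67 and that of the members to -0.29, and 111 members were called higher and 639 lower. Strongly targeted csr-class genes had a like median of 0.24, with 678 higher and 240 lower of 1388, whereas features of the mut class, the WAGO targets of the deposited annotation, had a median of -2.87 with 283 higher and 1236 lower.

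**Figure D1:**
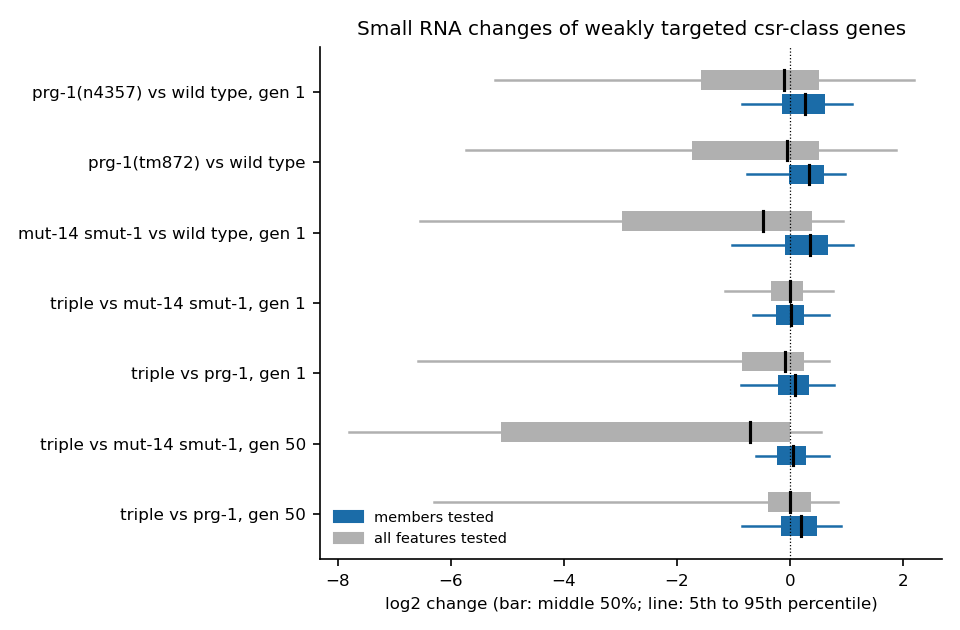
Log2 changes of small RNA for the tested members (blue) and for all tested features (grey) in 7 comparisons; bars span the middle 50%, lines the 5th to the 95th percentile, and black ticks mark the medians. The member medians lie between 0.01 and 0.35, and the members lack the long lower tail of the grey bars. Features differ between the experiments, and those of generation 50 include miRNA entries. Most features lower in triple against mut-14 smut-1 at generation 50 are in neither the mut nor the csr class. Values are on the authors' scaling, on which these directions rest.

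A handful of members took most of the added small RNA. The largest gain was on ceh-44, a homeobox gene of the CUT family, at 60.7, 49.1 and 54.6 in the wild-type libraries and 29050, 32270 and 30896 in the prg-1 libraries. The groups do not come near each other, and the log2 change was 9.11 ± 0.31 (SE; limma, Benjamini-Hochberg adjusted p = 7.5e-09). Whether any of these reads match another locus as well was not tested. This gene alone made up 56.1% of the members' net gain in the prg-1 mutant. The share of library values on all members was 7.67%, 7.44% and 7.58% in the prg-1 libraries, above every wild-type library. Without ceh-44 it was 5.92%, 5.62% and 5.77%, below every wild-type library, so the rise of the summed share in generation 1 rests on 1 gene. F33H2.3 made up 5.88% of the net gain and H20J04.9 3.90%; no role is given for either in the gene tables used here.

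**Figure D2:**
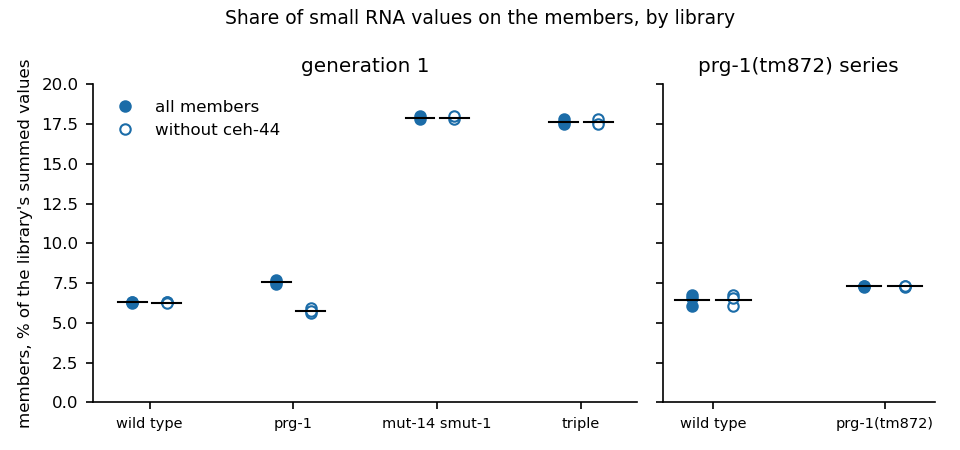
Share of each library's summed small RNA values on the members, in percent, with (filled) and without (open) ceh-44; each circle is 1 library and black lines are group means. Leaving out ceh-44 brings the 3 prg-1 libraries of generation 1 from above to below wild type, while the mut-14 smut-1 and triple libraries stay near 17.9% and 17.7%.

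The other members with the largest increases in the prg-1 mutant had in common that most or all of the increase was absent when mut-14 and smut-1 were mutated too. F33H2.3 was at 41.0, 32.4 and 38.9 in wild type and 3123, 3370 and 3270 in the prg-1 mutant, a log2 change of 6.41 ± 0.59 (limma, Benjamini-Hochberg adjusted p = 4.9e-06), and at 6.52, 5.47 and 6.19 in the triple mutant. H20J04.9 went from 61.6, 52.2 and 54.6 to 2037, 2330 and 2196, and its triple-mutant libraries held 8.47, 9.57 and 16.5. For both genes the triple mutant lay below every wild-type library.
The gene tsen-54, which encodes a subunit of the tRNA splicing endonuclease, went from 37.8, 33.4 and 37.4 to 1172, 1349 and 1224 and stood at 52.8, 73.8 and 84.65 in the triple mutant. The triple mutant was lower than the prg-1 mutant by fitted log2 changes of -8.18 ± 0.31 for ceh-44, -8.85 ± 0.59 for F33H2.3, -7.50 ± 0.33 for H20J04.9 and -4.15 ± 0.15 for tsen-54 (limma, adjusted p at most 4.1e-07).

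**Figure D3:**
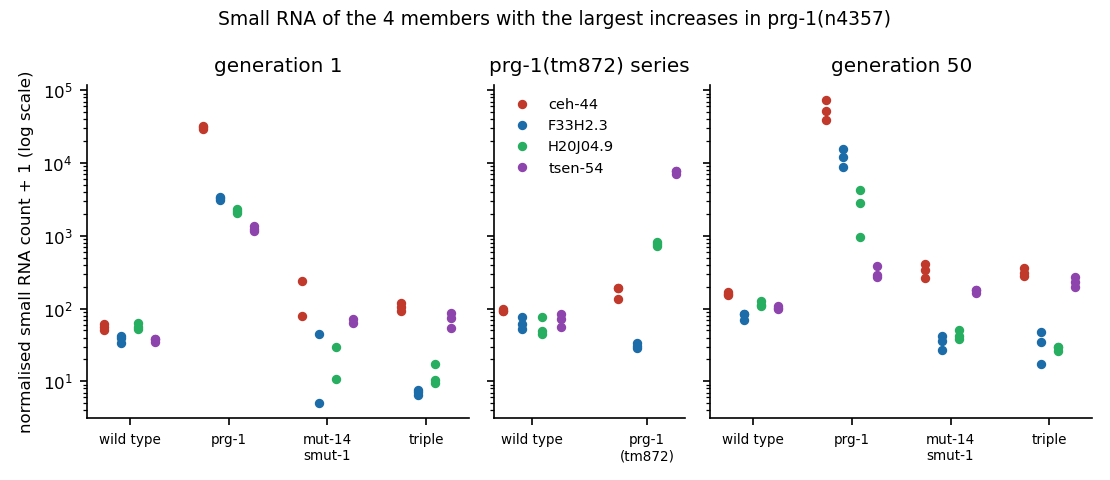
Normalised small RNA counts plus 1 (log axis) of ceh-44, F33H2.3, H20J04.9 and tsen-54 in every library of the 3 small RNA experiments; each point is 1 library. In the prg-1(n4357) mutant of generation 1 all 4 genes stand at 1172 or above, while in the triple mutant all lie at or below 120.

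Among members with lower small RNA in the prg-1 mutant, C02F12.8 fell nearly to 0. Its values were 20.5, 14.2 and 20.9 in wild type and 0, 0.929 and 1.98 in the prg-1 mutant, a log2 change of -3.43 ± 0.43 on the log2(value + 1) scale (limma, Benjamini-Hochberg adjusted p = 4.9e-05). F02E8.4 went from 51.7, 63.8 and 61.3 to 5.67, 11.1 and 3.95 (-3.02 ± 0.28, limma adjusted p = 5.6e-06), and it was not lower in the mut-14 smut-1 mutant, at 90.0 and 74.6. Other members with lower small RNA were chtl-1, a choline transporter-like gene, at -2.45 ± 0.62, and rbc-2, a rabconnectin homologue, which went from 58.3, 57.7 and 68.8 to 12.5, 7.43 and 16.8 (limma adjusted p = 0.00023). The gene nrde-3, which encodes the Argonaute that carries 22G-RNAs into the nucleus of somatic cells, fell by 1.42 ± 0.40 on the log2 scale (limma adjusted p = 0.0095), from 20.5, 16.7 and 17.9 to 10.2, 7.43 and 2.97. Over the whole class, 66 members fell at least 2-fold and 135 rose at least 2-fold, beside 31.2% and 10.8% of all features.

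The tm872 allele, sequenced with a separate wild type, gave a like shift of the class. Of 1948 members, 843 rose and 188 fell (limma, Benjamini-Hochberg adjusted p under 0.05), beside 34.2% and 41.4% of all features, and the median member change was 0.34 against -0.05 over all features. Scaled to library totals the calls split 387 higher and 313 lower, with the median of all features at -0.30 and that of the members at 0.09. The members' share of library values was 6.75%, 6.07% and 6.54% in wild type and 7.32%, 7.27% and 7.34% in prg-1(tm872), and without tsen-54 it stayed above wild type, at 6.98% ± 0.0409 (SD, n = 3). Over 1917 members measured in both series, the changes of the 2 alleles went together (Pearson r = 0.659, Spearman rho = 0.660, across genes), with 485 members higher in both and 108 lower in both. The 485 are 77.4% of those higher in n4357 and 57.7% of those higher in tm872, the 108 are 62.4% and 59.7% of those lower, and 11 members were called in opposite directions.

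The members with the largest gains were not the same in the 2 alleles. With tm872, tsen-54 led, at 71.8, 55.3 and 82.7 in wild type and 7030, 7699 and 7855 in the mutant (6.75 ± 0.13, limma adjusted p = 1.2e-10), and it made up 18.4% of the net gain. The gene ceh-44 rose only from 97.6, 92.6 and 91.4 to 136, 188 and 191, and F33H2.3 fell from 50.7, 61.3 and 75.4 to 30.0, 32.8 and 27.6 (-1.01 ± 0.19, limma adjusted p = 0.0009), opposite to its change in n4357. H20J04.9 rose with both alleles, here to 726, 764 and 818 from 43.1, 75.7 and 48.6.
Both alleles also raised orc-3, a subunit of the origin recognition complex, by 2.61 ± 0.10 in n4357 and 3.21 ± 0.07 in tm872. The zinc-finger gene egrh-2 rose by 1.03 ± 0.19 in n4357 and 3.78 ± 0.11 in tm872, and lin-8, a synthetic multivulva class A gene, by 1.13 ± 0.22 and 3.65 ± 0.27; each of these 6 changes passed limma's test at adjusted p under 0.05. The sizes in the 2 series come from separate fits, and the difference between the alleles was not tested. Falls of C02F12.8 and F02E8.4 were shared, with -3.49 ± 0.59 and -2.01 ± 0.20 in tm872. In the tm872 series nrde-3 went from 15.3, 16.8 and 23.2 to 5.01, 2.12 and 2.12, with no overlap (limma adjusted p = 0.00015).

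**Figure D4:**
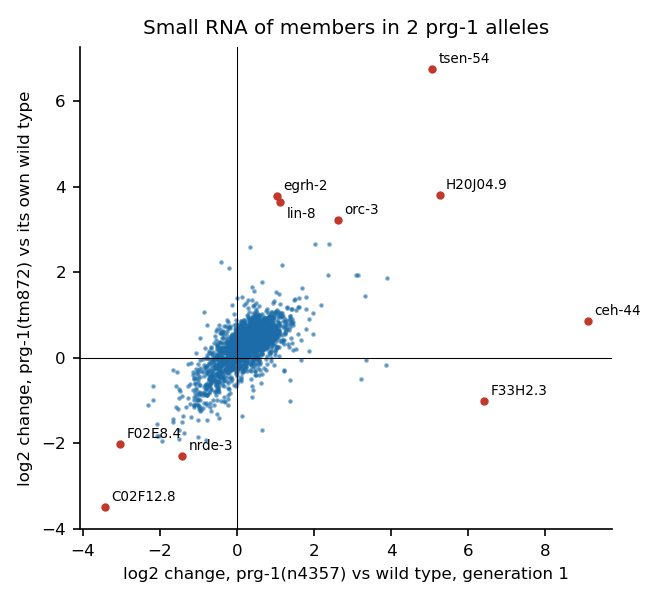
Log2 change of small RNA in prg-1(n4357) (x axis) and in prg-1(tm872) against its own wild type (y axis); each blue point is 1 of the members tested in both series, and red points are named members. Most points rise along the diagonal (Pearson r = 0.659), while ceh-44 and F33H2.3 lie far to the right of it and tsen-54 stands highest.

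In the mut-14 smut-1 mutant of generation 1 the members, like the strongly targeted csr-class genes, took a larger share of the small RNA than in wild type. The members made up 17.8% and 18.0% of the library values in the 2 mut-14 smut-1 libraries, against 6.29% ± 0.0491 (SD, n = 3) in wild type, and 17.7% ± 0.154 in the triple mutant. Of the members, 678 rose and 147 fell (limma, Benjamini-Hochberg adjusted p under 0.05), beside 21.9% and 46.9% of all features. The median member change was 0.35 against -0.47 over all features, and 87.4% of the members lay above the median of all. The strongly targeted genes had a median of 0.37, with 787 higher and 183 lower of 1388, and made up 63.8% of the library values against 23.0% in wild type. At generation 50, where the values include miRNA entries, no such rise of the shares was seen. The members took 3.35%, 3.46% and 2.43% in the mut-14 smut-1 lines against 3.01%, 2.70% and 2.87% in wild type, as a description. The strongly targeted genes took a mean of 9.77% against 10.39%. Scaling to library totals raised both medians, to 1.45 for the members and 0.62 for all features, and called 1645 members higher and 15 lower. The mut-14 smut-1 libraries were among the shallowest, at 224056 and 595845 reads.

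Single members moved further in mut-14 smut-1 than the class. F10G7.10 rose from 45.2, 57.2 and 41.1 to 184 and 174 (1.90 ± 0.26, limma Benjamini-Hochberg adjusted p = 9e-05) and was back at 50.2, 90.2 and 47.5 in the triple mutant. The chromatin remodeller gene chd-3 fell from 50.1, 39.0 and 40.4 to 0 and 5.62 (-4.09 ± 0.68, limma adjusted p = 0.00035), and it was also lower in both prg-1 alleles, at -2.08 ± 0.61 and -1.82 ± 0.25. The gene mob-2, a kinase activator of the MOB family, went from 14.8, 14.7 and 20.2 to 0 and 4.81. Both end at or near 0 in shallow libraries, so the sizes of these falls depend on the pseudocount.

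Adding the prg-1 mutation to mut-14 smut-1 changed few members in generation 1. Of 1959 members 32 rose and 26 fell (limma, Benjamini-Hochberg adjusted p under 0.05), beside 2.9% and 3.18% of all features, with a median change of 0.01. This count was unsteady: it was 14 without the first mut-14 smut-1 library, 91 without the other and 37 without the second triple-mutant library, against 58. The test of the difference itself, the prg-1 effect in the mut-14 smut-1 background minus that in wild type, called 352 members lower and 101 higher, beside 20.4% and 31% of all features, but with library totals 332 were higher and 63 lower, so that direction rests on the scaling. The proteasome lid gene rpn-8 was an exception that gained in the triple mutant, from 37.3 and 36.1 in mut-14 smut-1 to 113, 109 and 95, with wild type at 23.8, 22.3 and 20.2. Against the prg-1 mutant, the triple mutant had 216 members higher and 132 lower, beside 10.3% and 23.6%; with library totals 1834 were higher and 17 lower.

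At generation 50 the triple mutant could be compared with the prg-1 and mut-14 smut-1 mutants without the wild type that chose the members. Against mut-14 smut-1, 260 members rose and 167 fell (limma, Benjamini-Hochberg adjusted p under 0.05), beside 6.05% and 48.6% of all features, and the median member change was 0.04 against -0.71. The features of this experiment include miRNA entries, and their shares are unlike those of generation 1, where 3.18% of all features were lower. In the mut class 56 rose and 599 fell of 2431, with a median of -0.48. That is a small part of the 5327 features called lower, most of which were in neither the mut nor the csr class. Which kinds of entry these were was not examined here, so the members are not set against like features. The strongly targeted csr-class genes had 321 higher and 175 lower of 1390, with a median of 0.05. Without the first mut-14 smut-1 line 279 members were called in place of 427; with library totals 274 were higher and 39 lower. Against prg-1, 483 rose and 131 fell, beside 11.4% and 17.0%, with a median of 0.19 against 0.00 for all features; scaled to miRNA values only 12 were higher and 629 lower, with medians of -0.52 for the members and -0.35 for all features. The largest rise against prg-1 on the deposited scale with lines that did not overlap included rpn-8, from 95.3, 111 and 93.1 to 447, 475 and 539 (2.27 ± 0.15, limma adjusted p = 1.2e-07), and the arrestin-domain gene arrd-13 rose against mut-14 smut-1 from 9.93, 5.80 and 37.1 to 58.9, 74.9 and 71.3.

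Some of the members with high small RNA in the prg-1 mutant of generation 1 were also high in the prg-1 lines at generation 50, given here as values only. The gene ceh-44 was at 150, 156 and 170 in the wild-type lines, 39070, 74290 and 51659 in the prg-1 lines, and 355, 309 and 275 in the triple lines. F33H2.3 was at 81.9, 84.3 and 67.6 in wild type and 8704, 12140 and 15598 in prg-1, and tsen-54 at 106, 100.4 and 96.7 and then 273, 386 and 290. H20J04.9 was at 106, 110.4 and 127 in wild type and 961, 4220 and 2814 in prg-1. All prg-1 lines lay above all wild-type lines for these 4 genes, though tsen-54 stood much closer to wild type than in generation 1. Without ceh-44 the members' share of library values was 2.87%, 3.13% and 3.51% in the prg-1 lines. In the wild-type lines it was 3.01%, 2.70% and 2.87%, so the groups overlapped, with 2 prg-1 lines above every wild-type line. Of the members' net gain in the prg-1 lines, ceh-44 made up 37.5%, F33H2.3 8.26% and immp-2 (Y55F3AM.8), a homologue of an inner mitochondrial membrane peptidase subunit, 5.04%. The gain of immp-2 lay in 1 line: it was at 43.98, 44.4 and 22045 in the prg-1 lines and at 19.3, 23.4 and 17.6 in wild type, and in generation 1 its prg-1 libraries held only 13.6, 6.5 and 16.8. Its mRNA in the prg-1 lines of generation 50 was 304, 343 and 144, against 307, 294 and 277 in wild type (limma adjusted p = 0.66), and the low value is in the line with the same number. This gene was picked after its values were seen. Over the class, 854 members were higher and 193 lower in prg-1, beside 21.3% and 57.3% of all features, and 1051 higher and 193 lower in mut-14 smut-1, beside 52.8% and 26.0%; nothing is read from these counts, since the rule used these wild-type lines.

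Among members that passed the filter, the median shift differed little from the weakest to the strongest targets. The members were divided into 4 equal groups by the generation 50 wild-type level, from 10.0 to 48.2, 48.4 to 88.6, 88.6 to 138 and 138 to 199.9. The median small RNA change in the prg-1 mutant of generation 1 was 0.36, 0.26, 0.25 and 0.25 from the lowest to the highest group, and 0.24 in the strongly targeted genes. The corresponding medians in tm872 were 0.41, 0.30, 0.33 and 0.34, with 0.38 in the strongly targeted genes. More members were called in the upper groups: 81, 144, 192 and 214 rose, while the median standard error went from 0.344 in the lowest group to 0.156 in the highest. Fewer of the weakest members were tested, 345 of 539 in the lowest group, and that group's median is over those that passed the filter only. The filter counts libraries of any group, so a member low in wild type can pass through mutant libraries where it is high. This favours rises in the lowest group. Without a filter the median over the members was 0.24 in n4357 and 0.31 in tm872, against 0.27 and 0.34 with it.

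The members of the lists of cellular complexes were mostly higher or not called in small RNA in both prg-1 alleles. The splicing list held 10 members, and all 10 rose in both prg-1 alleles. Of the 17 proteasome members 13 rose in n4357 and 16 in tm872, and none fell. Of the 14 cytosolic ribosomal protein members 9 rose with each allele, and of the 48 mitochondrial ribosomal protein members 19 rose and 5 fell in n4357 while 26 rose and 1 fell in tm872. Other lists lay nearer the share of all features in n4357: of 12 aminoacyl-tRNA synthetase members 4 rose and 1 fell, and of 18 translation factor members 6 rose and 1 fell, with 6 and 11 higher and none lower in tm872. Of 6 nuclear pore members 3 rose in n4357 and 4 in tm872. These counts stand beside 27.9% of all features rising in n4357 and 34.2% in tm872, and beside 32.2% and 43.3% of all tested members. They rest on the deposited scaling, no list was tested as a set, and the lists were chosen with results of these data known.

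Lists tied to cell division and the germ line stand beside the same background shares. Of 10 tested kinetochore members 6 rose, of 6 cell cycle regulators 4 rose, of 8 DNA replication and repair members 4 rose and of 8 meiosis members 2 rose in n4357, and none of these fell. Of the 9 oocyte and early embryo regulators 3 rose and 2 fell in n4357, whereas 7 rose and none fell in tm872. Of 5 tested members of the piRNA pathway list 3 rose and 1 fell: pid-1, needed to make piRNAs, rose by 1.03 ± 0.17, and henn-1, the methyltransferase that modifies piRNA 3′ ends, fell by 0.77 ± 0.18 on the log2 scale (limma, Benjamini-Hochberg adjusted p = 0.0033). In tm872 these 2 genes had changes of 0.25 and 0.06, and neither passed the test.

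The members' mRNAs were almost uniformly lower in the prg-1 mutant of generation 1, by a small amount. Of 2146 tested members 1609 fell and 26 rose (limma, Benjamini-Hochberg adjusted p under 0.05), beside 32.0% and 25.6% of all features, and the median log2 change was -0.25 against -0.02 over all features. Only 6.48% of the members lay above the median of all features. A fall of 2-fold or more was rare, with 36 members beside 1.92% of all features, and 1 member rose that much, beside 10.5%. With library totals 901 fell and 69 rose, and the median of the members was -0.13 against 0.10 for all features. The strongly targeted genes had a median of -0.22, with 1033 lower and 13 higher of 1390, so the fall was not restricted to weak targets.

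In the mut-14 smut-1 mutant the mRNA shift was larger in the same direction. Of the members 1883 fell and 51 rose, beside 39.9% and 38.1% of all features (limma, Benjamini-Hochberg adjusted p under 0.05). The median was -0.45 against 0.04 over all features, and with library totals 1400 fell and 170 rose, with medians of -0.23 and 0.25. The triple mutant differed from mut-14 smut-1 by a median of -0.04, with 131 lower and 56 higher, beside 5.51% and 6.01%. That count of 187 fell to 101 and 107 without the third and the second mut-14 smut-1 library, to 79 lower and 40 higher without the first, to 114 without the first triple-mutant library and to 117 without the third. The prg-1 effect in the mut-14 smut-1 background was above that in wild type for 895 members and below it for 25, beside 19.9% and 17.2% of all features, and for 365 and 58 with library totals.

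Whole-animal marker levels moved with the mRNA shift. The summed mRNA of 35 sperm markers was 1820 to 2591 in wild type, 7690 to 8537 in prg-1, 17660 to 20800 in mut-14 smut-1 and 26340 to 31950 in the triple mutant, with 2 of the 35 at 0 in wild type and in prg-1. The summed mRNA of 9 eggshell proteins, made in oocytes, was 155300 to 169100 in wild type, 128700 to 141600 in prg-1 and 98910 to 112000 in mut-14 smut-1. The 10 body wall muscle markers were at 62320 to 68790, 82100 to 104500 and 108700 to 140600 in the same order, and the 159 cuticle collagens, of which 11 to 17 were at 0, at 366300 to 403800, 505800 to 541000 and 617100 to 663100. The 11 neuron markers were at 2372 to 2468, 3135 to 3166 and 3463 to 3652. The 6 intestinal vitellogenins, somatic genes for yolk proteins, did not follow the other somatic lists, at 816500 to 900700 in wild type, 721500 to 992400 in prg-1 and 416300 to 623500 in mut-14 smut-1. Apart from the vitellogenins in prg-1, none of these wild-type ranges overlaps that of the prg-1 or the mut-14 smut-1 mutant. Eggshell protein mRNA was thus lower and sperm, muscle, collagen and neuron markers higher beside the fall of the members. Their part in the result was not tested, and in whole animals fewer cells of a type and less RNA per cell cannot be told apart.

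**Figure D5:**
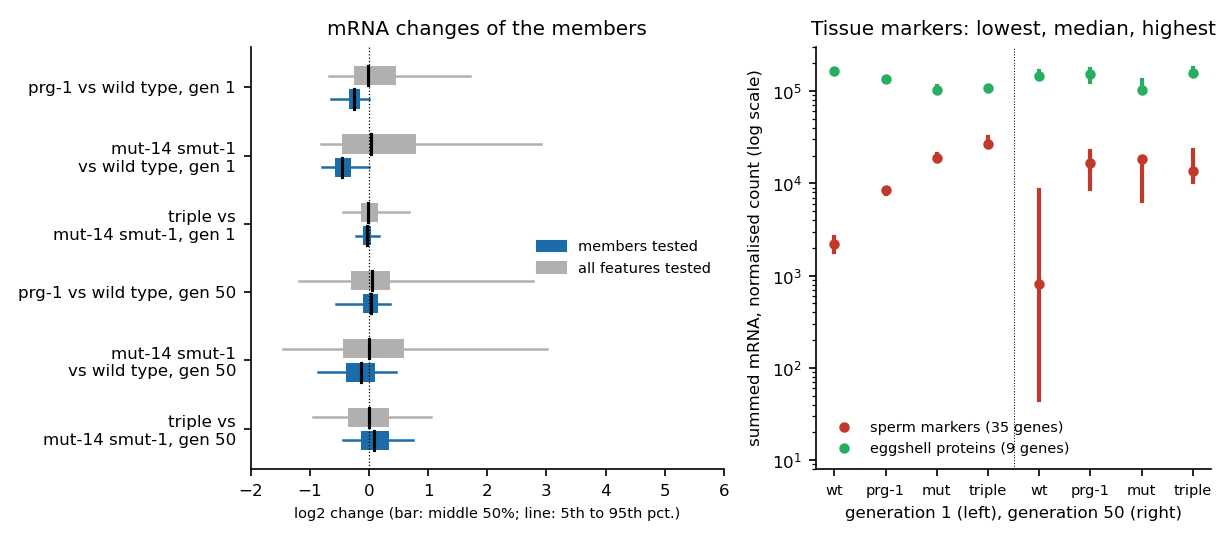
Left, log2 mRNA changes of the tested members (blue) and of all tested features (grey), with bars for the middle 50%, lines for the 5th to the 95th percentile and ticks for the medians. Right, summed normalised mRNA counts (log axis) of sperm markers and eggshell proteins per group, as the median (point) and the range (line) over 3 libraries. The members' medians are -0.25 for prg-1 and -0.45 for mut-14 smut-1 in generation 1, and 0.03 for prg-1 at generation 50. Eggshell protein sums are lower and sperm marker sums higher in both mutants of generation 1. In prg-1 at generation 50 the eggshell sums overlap wild type, while the sperm marker sums stay above it. A link between markers and members was not tested, and the directions are on the deposited scaling.

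Single members stood far from this small common fall. The gene tmed-12, of a family of secretory-pathway cargo receptors, fell from 149, 146 and 113 to 11.6, 10.9 and 19.9 in prg-1 (-3.22 ± 0.29, limma Benjamini-Hochberg adjusted p = 1.9e-07), and Y73B3A.4 fell from 376, 312 and 373 to 47.8, 51.9 and 28.7. F33H2.3 fell from 828, 847 and 885 to 164, 190 and 170 (-2.29 ± 0.07), and F02E8.4 from 2940, 2864 and 2889 to 629, 655 and 634 (-2.18 ± 0.04), while E02H4.6 fell by 2.18 ± 0.12 on the log2 scale. For all of these the wild-type and prg-1 libraries lay far apart, and all passed limma's test.
Of the few that rose, cls-3, of the CLASP family of microtubule-binding proteins, went from 497, 539 and 467 to 1094, 1186 and 1084 (1.16 ± 0.07, limma adjusted p = 6.9e-10). The cytosolic aconitase gene aco-1 rose by 0.92 ± 0.05, and C02G6.1 by 0.88 ± 0.17. In mut-14 smut-1, T08D2.8 fell by 4.30 ± 0.32 on the log2 scale, from 129, 128 and 89.2 to 8.03, 3.27 and 4.15, and Y35H6.3 from 48.1, 53.8 and 40.9 to 0, 1.09 and 1.38. The non-muscle myosin gene nmy-1 rose there from 5366, 5687 and 5550 to 9289, 9782 and 9112 (0.76 ± 0.05).

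Most members of most lists fell in mRNA in generation 1. In prg-1, 12 of 12 kinetochore members, 8 of 8 DNA replication and repair members, 6 of 6 cell cycle regulators, 6 of 8 meiosis members and 8 of 9 oocyte and early embryo regulators fell, beside 32.0% of all features. So did 16 of 17 proteasome members, 9 of 10 splicing members, 16 of 18 translation factor members, 31 of 48 mitochondrial ribosomal protein members and 6 of 12 aminoacyl-tRNA synthetase members, of which 1 rose. In mut-14 smut-1 all members of these 10 lists fell except 1 translation factor and 2 mitochondrial ribosomal protein members, which were not called, beside 39.9% of all features. Of the 14 cytosolic ribosomal protein members 7 fell in prg-1 and 6 in mut-14 smut-1, which is near the share of all features in the latter. All 4 germ granule members fell in prg-1, with a median of -1.42, and meg-2, a germ plasm protein gene, went from 561, 530 and 576 to 255, 215 and 203 (-1.31 ± 0.08, limma Benjamini-Hochberg adjusted p = 2.9e-09). Small RNA of meg-2 did not pass the test in either allele, at -0.47 ± 0.36 in n4357 and 0.20 ± 0.36 in tm872.

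Of the 5 listed genes of the CSR-1 pathway itself 4 matched a gene symbol. None of these 4 is a member, and their mRNAs fell in generation 1 as the members' did. All 4 matched genes, csr-1, ego-1, drh-3 and ekl-1, fell in generation 1, with a median of -0.17 in prg-1 and -0.54 in mut-14 smut-1. The mRNA of csr-1 changed by -0.15 ± 0.05 (limma, Benjamini-Hochberg adjusted p = 0.017) in prg-1 and by -0.68 ± 0.05 in mut-14 smut-1. Of 20 matched mutator and WAGO pathway genes 13 fell and 1 rose in prg-1, and of 12 matched piRNA pathway genes 9 fell and 1 rose, where prg-1 and mut-14 are the mutated genes themselves. At generation 50 none of the 4 CSR-1 pathway genes passed the test in prg-1, and 1 of 4, csr-1 at -0.30 ± 0.10 (limma adjusted p = 0.046), was lower in mut-14 smut-1.

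In the prg-1 lines of generation 50 the mRNA fall of the class was mostly not seen. The 2 generations were fitted separately, each with its own wild type, and the difference between them was not tested. Age and other differences between the 2 experiments cannot be told apart from generation. The median change of 2144 members was 0.03 against 0.04 over all features, with 57 lower and 12 higher (limma, Benjamini-Hochberg adjusted p under 0.05), beside 3.8% and 7.41% of all features. The lines varied more: the 69 calls fell to 10 without wild-type line 3, 15 without wild-type line 2, 12 without prg-1 line 2, 44 without prg-1 line 3 and 45 without wild-type line 1. Of the 57 lower members 56 were also lower in generation 1, and the changes of the 2 generations went together over 2144 members (Pearson r = 0.663, Spearman rho = 0.511, across genes). The lower calls were concentrated in the weakest targets, with 43, 9, 4 and 1 from the lowest to the highest of the 4 small RNA level groups. Eggshell protein mRNA overlapped between the groups, at 143100 to 166800 in wild type and 125700 to 171200 in prg-1, whereas sperm markers were at 45.2 to 8510 and 8733 to 22590. Collagens stayed apart, at 209900 to 293500 and 439900 to 491200, and neuron markers did so in the direction opposite to generation 1, at 8724 to 9674 in wild type and 5208 to 6674 in prg-1. Muscle markers and vitellogenins overlapped between the groups, and the part of these markers was not tested.

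Members that stayed lower in prg-1 at generation 50 included F33H2.3 (-1.91 ± 0.33, limma Benjamini-Hochberg adjusted p = 0.0067), chtl-1 (-0.99 ± 0.17), meg-2 (-0.77 ± 0.17) and nrde-3 (-0.75 ± 0.16), the last 3 at limma adjusted p of at most 0.0192. E02H4.6 was also lower, at 280.5, 233 and 324 in the prg-1 lines against 541, 587 and 534 (limma adjusted p = 0.0093). F02E8.4 missed the threshold, at -0.60 ± 0.19 (limma adjusted p = 0.061), with lines at 2113, 1544 and 2494 against 2850, 3207 and 3100. Of those that rose early, aco-1 was again higher, at 12730, 11200 and 8309 against 5935, 5587 and 6221 (0.84 ± 0.17, limma adjusted p = 0.016), and so was C02G6.1 (1.27 ± 0.31, limma adjusted p = 0.027). The lines of cls-3 overlapped, because wild-type line 1 held 2620 beside 1046 and 1015.

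In the mut-14 smut-1 lines of generation 50, 365 members were lower in mRNA and 46 higher, beside 11.3% and 16.5% of all features, with a median of -0.13 against 0.01. With library totals 219 were lower and 62 higher. Of the 365, 341 were also lower in generation 1, where 87.7% of all tested members were lower in this mutant. The 411 calls became 179, 245 and 219 without wild-type line 3, 2 and 1, and 652 without mut-14 smut-1 line 3. Eggshell protein mRNA was 100900 to 130800 in these lines, below every wild-type line. Neuron markers were also below, at 4851 to 7025, opposite to generation 1, and collagens lay above, at 471900 to 644900. Sperm markers, at 6399 to 18490, overlapped wild type, as did muscle markers and vitellogenins. The part of these markers was not tested.
The triple lines differed from mut-14 smut-1 in 38 members, all higher, beside 1.41% of all features, with 0 lower, beside 0.545% (limma; at an unadjusted p under 0.05, 475 were higher and 77 lower). The absence of lower calls rests on mut-14 smut-1 line 3, without which 219 members were higher and 125 lower. The count became 17 and 79 without mut-14 smut-1 line 1 and 2, all higher, and 3, 4 and 6 without triple line 1, 2 and 3. The prg-1 effect differed between the 2 backgrounds in 69 members, 63 higher and 6 lower, beside 1.73% and 2.86%. With library totals the split was 29 and 20, and the count ranged from 10 without wild-type line 3 to 264 without mut-14 smut-1 line 3, where 163 were higher and 101 lower.

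Changes of small RNA and mRNA in the prg-1 mutant of generation 1 were nearly unrelated within the class. Over 1954 members the Pearson correlation was 0.124 and the Spearman correlation 0.042, across genes and between separate libraries. The mRNA fell in 75.4% of the 629 members whose small RNA rose, in 76.7% of the 176 whose small RNA fell and in 75.1% of the 1149 whose small RNA was not called. Members whose small RNA fell at least 2-fold had a median mRNA change of -0.31, with 59 of 66 lower, and those whose small RNA rose at least 2-fold had -0.25, with 88 of 135 lower and 6 higher. Of single members, F28D9.4 gained small RNA (3.32 ± 0.20) and lost mRNA (-0.69 ± 0.14), and M02B7.7 did likewise with 1.26 ± 0.38 and -0.87 ± 0.28 (all 4 at limma adjusted p under 0.05).

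The 4 members with the largest small RNA gains lost unequal amounts of mRNA. In ceh-44 the mRNA went from 2575, 2625 and 2564 to 1859, 1867 and 1815 (-0.49 ± 0.04, limma Benjamini-Hochberg adjusted p = 1.8e-07), in H20J04.9 the change was -0.56 ± 0.10, in tsen-54 it was -0.43 ± 0.12, and in F33H2.3 it was the -2.29 given above. At generation 50 the change of ceh-44 was -0.19 ± 0.11 and missed the threshold (limma adjusted p = 0.31), while its small RNA was still high in every prg-1 line. Losses of small RNA went with losses of mRNA in C02F12.8 (-1.38 ± 0.09), chtl-1 (-1.72 ± 0.06) and chd-3 (-0.73 ± 0.05), and in nrde-3, whose mRNA went from 1492, 1460 and 1423 to 719, 776 and 689. In nmy-1, whose small RNA fell by 2.18 ± 0.38 on the log2 scale in prg-1, the mRNA change was 0.08 ± 0.05 and did not pass the test.

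Beyond the class label, some members share a second label or a neighbour. The alg class, targets of the Argonautes ALG-3 and ALG-4 of the male germ line, also listed 158 members. Of the 155 of these tested in generation 1, 62 rose and 10 fell in small RNA in prg-1, with a median of 0.42, while alg-class features outside the class had 86 higher, 106 lower and a median of -0.15. Their mRNA likewise followed the class, with 2 higher and 129 lower in prg-1, whereas the alg-class features outside it had 758 higher and 90 lower and a median of 1.44. In the RefSeq gene order of assembly WBcel235, used only for which genes adjoin, 1270 of the 2119 matched members (59.9%) lay next to another csr-class gene, against 65.3% of strongly targeted genes and 23.6% of genes outside the class. Overlap of neighbouring genes can split or share reads, and this was not tested.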

How the data were processed

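Small RNA (16 to 30 nt, polyphosphatase-treated) and rRNA-depleted mRNA (over 200 nt, directional kits) libraries were made from whole animals, per the labels' protocols. The values of each deposited table are a normalised signal: whole read counts divided by the authors with 1 factor per library, judged from the values. Whole reads were recovered for 100% of small RNA values (within 0.01). For mRNA, 93.4% to 96.3% of the low values lay within 0.1 of a whole read. The value of 1 mRNA read was itself estimated from low values, so the mRNA read totals are estimates. Aligner, counter, build and strand setting: not given in the sources used here. Reads of a gene and of an antisense partner therefore cannot be told apart in mRNA.

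Tests used limma 3.58.1 (R 4.3.3) with a mean-variance trend on log2(value + 1), a mean for every group of the table fitted together, features reaching 10 in as many libraries as the smallest group, and Benjamini-Hochberg adjustment over all features. edgeR 4.0.16 and DESeq2 1.42.0 on recovered small RNA reads were alternatives; edgeR's quasi-likelihood test called 765 members higher and 239 lower in prg-1 of generation 1, 875 and 212 in tm872, while for mut-14 smut-1 it gave 998 higher and 119 lower. The fits were tested on simulated data. Replicate numbers did not pair the libraries (correlations of same-numbered deviations from -0.267 to 0.328).

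Members and lists were chosen with earlier results of these data known. Named genes are, per comparison, the called members with the largest changes and libraries that do not overlap (4 each way for small RNA, 3 each way for mRNA), members whose small RNA and mRNA moved furthest in opposite directions, and pathway genes; lig-4, pbs-1, map-2 and the other genes at the bounds come from the rule. A polyA-selected table (6 columns) was not used here. Sequences were not analysed here. Fold changes understate low genes, and the depth of each library sets the floor of what can be seen.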

Additional observations from a re-analysis of the deposited data

Results flagged for a closer look

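The prg-1 effect was tested for a difference between the mut-14 smut-1 background and wild type. In generation 1, 453 members differed in small RNA and 920 in mRNA, and at generation 50 69 differed in mRNA (limma interaction, Benjamini-Hochberg adjusted p under 0.05), beside 51.3%, 37.1% and 4.59% of all features. The named members with the largest differences in small RNA were ceh-44 at -9.48, F33H2.3 at -7.50, H20J04.9 at -5.82 and tsen-54 at -5.01 on the log2 scale, where the prg-1 mutation raised small RNA in the wild-type background and not in mut-14 smut-1. The 2 mut-14 smut-1 libraries lay far apart for ceh-44 (241.5 and 77.0), F33H2.3 (43.9 and 4.01) and H20J04.9 (28.5 and 9.63). The higher value was each time in the library of 224056 reads, so these sizes are uncertain. For tsen-54 they were close, at 70.3 and 62.6. In the other direction, C02F12.8 differed by 2.89 and F02E8.4 by 2.66, where the prg-1 mutation lowered small RNA in the wild-type background and the libraries of triple and mut-14 smut-1 did not pass the test of a difference. These contrasts share the strain differences named above, and their cause was not tested.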

How the results depend on the processing

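The number of members called in each comparison, and the named genes, were recomputed with other scalings, filters, pseudocounts and tools. Of 127 recomputed counts 110 stayed within 1.5 times. These include median-ratio (RLE) scaling, which gave the same counts as the deposited scaling in every comparison, so its agreement was no check. Of the gene results 1768 stayed, 93 became weaker and 4 changed direction. A count that stayed can still change direction. With library totals the generation 1 small RNA calls for prg-1 went from 631 higher and 176 lower to 111 and 639. Those for the difference of prg-1 effects went from 101 higher and 352 lower to 332 and 63. Under miRNA scaling the generation 50 calls for triple against prg-1 went from 483 higher and 131 lower to 12 and 629. With library totals the count in generation 1 mRNA became 970 from 1635 for prg-1 and 423 from 920 for the difference of prg-1 effects, and in generation 1 small RNA 1660 from 825 for mut-14 smut-1 and 1851 from 348 for triple against prg-1. For triple against prg-1 edgeR called 588.

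For triple against mut-14 smut-1 in generation 1 small RNA (58 calls), DESeq2 called 36, no filter 28, only the 2 groups 2. In generation 50 mRNA (38 calls) a filter of 30 gave 65, library totals 10, no filter 25 and only the 2 groups 0 (limma; 296 higher and 30 lower at an unadjusted p under 0.05). At generation 50, fitting only the 2 groups gave 107 of 411 for mut-14 smut-1 mRNA, and miRNA scaling gave 150 of 427 for triple against mut-14 smut-1 small RNA. With the replicate block these counts were 28 (58), 15 (38) and, for the generation 50 mRNA difference of prg-1 effects, 34 (69); it moved no other count by more than 1.5 times. The causes were not tested.

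Under library totals 4 small RNA changes of generation 1 turned positive: arrd-13 in mut-14 smut-1 at 0.39, and pid-1, T08D2.8 and Y73B3A.4 in triple against prg-1 at 1.01, 0.59 and 0.71.

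Leaving out 1 library in turn gave these ranges. In generation 1 mRNA: prg-1 1358 to 1567, mut-14 smut-1 1853 to 1905, triple against mut-14 smut-1 101 to 278, difference of prg-1 effects 682 to 1005. In generation 50 mRNA: 10 to 47, 179 to 652, 3 to 344 and 10 to 264. In generation 1 small RNA: prg-1 677 to 702, mut-14 smut-1 607 to 713, triple against mut-14 smut-1 14 to 91, triple against prg-1 269 to 293, difference of prg-1 effects 333 to 457. In tm872: 860 to 936. In generation 50 small RNA: triple against mut-14 smut-1 279 to 550 and against prg-1 484 to 589. Where 1 mut-14 smut-1 small RNA library remained, it was assumed to vary like the other groups.

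Depth limits the weakest members, and 224056 reads in 1 mut-14 smut-1 library make low values there uncertain. Counting intervals would cover counting error only.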
